A study of Mus musculus with 10 samples.

Results

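Nefl, Nefm, Nefh, Ina and Prph code for the intermediate filament proteins that are typical of neurons. They were taken by symbol, 5 of the 34254 genes counted in each library, and all 5 were found. Neurofilaments are ropes of protein that fill axons, set their calibre and so the speed at which they conduct. The light chain (Nefl) forms the core with the medium chain (Nefm) and the heavy chain (Nefh), whose long tails reach out from the filament and carry many phosphate groups, and alpha-internexin (Ina) joins them in the central nervous system. Peripherin (Prph) is found mostly in neurons that send axons out of the brain and spinal cord and in few central neurons. In the retina, neurofilament protein is a classical label of ganglion cells and their axons, and the heavy chain is abundant in the large alpha ganglion cells, for which Spp1 and Kcng4 are marker genes.

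Retinal ganglion cells (RGCs), the neurons whose axons form the optic nerve, were profiled by droplet single-cell RNA sequencing in 6 libraries of uninjured retinas and 4 libraries of retinas taken 2 weeks after optic nerve crush (ONC). All animals were wild-type mice of the strain 129S1/SvImJ, of both sexes and 12 weeks old, and the labels of these libraries give no treatment other than the crush. Each batch pooled 10 retinas, macrophages were removed (the paper adds amacrine cells) and RGCs were then captured on plates coated with an antibody against Thy1, and 6000 cells were loaded. The deposited values are raw counts of UMIs (tags that each mark 1 captured RNA molecule) in the cells that the authors kept as RGCs. The uninjured files hold 1683 cells and the injured files 1609. The injured cells are more than the paper states, and the reason is not given.

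The uninjured libraries held 98, 103, 363, 651, 267 and 201 cells and the injured libraries 338, 273, 527 and 471 cells. Total UMIs ran from 2839693 to 23180399 in uninjured libraries and from 4698799 to 8860536 in injured libraries. Depth per cell moved with condition, with a median of 20437 to 34337 UMIs per cell in uninjured libraries and of 11257 to 14695 in injured ones. Injured 3 and 4 had 421 cell barcodes in common, and their summed counts differed by no more than sampling noise (median chi-square over noise 0.954), so they were averaged and counted as 1 sample, injured 3/4. Among the remaining pairs of libraries the most barcodes in common was 1. The 9 samples were also not all equally far apart. Uninjured 1 and 2, 3 and 4, 5 and 6, and injured 1 and 2 were closer to each other (1.44 to 2.11 on the same scale) than other uninjured pairs (3.46 to 16.0) or other injured pairs (4.13 to 4.36), so the number of independent units may be smaller than 9.

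The injured libraries differed in their make-up. Xist, which is transcribed in female cells, was counted in 62.1% of cells in injured 1 and 67.4% in injured 2 but in no more than 0.569% elsewhere, although all are labelled as coming from both sexes. The reporter mCherry was counted in 86.0% and 84.3% of cells in injured 3 and 4, in 7.99% and 15.0% in injured 1 and 2, and in no uninjured cell. The paper describes vectors with mCherry that were injected into eyes before crush, and the labels do not say whether the injured libraries come from such eyes. The fold changes of the members with injury are therefore also given below without injured 3/4. The RGC markers Rbpms, Slc17a6, Sncg, Tubb3 and Thy1 were all present, with a summed level of 3464 to 5755 CPM (the usual scale of a gene's UMIs relative to all UMIs of its sample, here with edgeR's TMM factors between samples) in uninjured samples and of 2999, 3454 and 4230 CPM in injured 1, 2 and 3/4. Single markers moved in opposite directions. Rbpms (a median of 707 to 293 CPM) and Sncg (2053 to 1017 CPM) fell, Tubb3 (461 to 1110 CPM) rose, and Slc17a6 and Thy1 were not past the threshold of the injury test given below.

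In the GENCODE annotation of GRCm39, Nefl (ENSMUSG00000022055.9) lies at chr14:68321268-68326544 on the forward strand and Nefm (ENSMUSG00000022054.13) at chr14:68320039-68362305 on the reverse strand. The canonical transcripts of these neighbours are 30187 bases apart, but a longer annotated form of Nefm ends across the start of Nefl, and its long annotated span also covers noncoding genes. Nefh (ENSMUSG00000020396.10) lies at chr11:4888740-4898130 on the reverse strand and overlaps Ap1b1 on the other strand. Ina (ENSMUSG00000034336.5) lies at chr19:47003069-47013770 on the forward strand and overlaps Nt5c2 on the other strand, and Prph (ENSMUSG00000023484.16) lies at chr15:98952872-98956862 on the forward strand and overlaps no annotated gene. The paper states that Cell Ranger was run with default parameters and does not describe how reads in overlapping genes were assigned. The counts of Nefl, Nefm, Nefh and Ina are uncertain to that extent. The canonical transcripts have 4 exons in Nefl, 3 in Nefm, 4 in Nefh, 3 in Ina and 9 in Prph.

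Levels of different genes were compared per kilobase of the canonical transcript (3424 bases in Nefl, 3344 in Nefm, 4074 in Nefh, 3261 in Ina and 1947 in Prph). Droplet libraries count molecules by their 3′ ends, so length may matter less here than in whole-transcript data, and the levels in CPM, which are not divided by length, gave the same order. In uninjured samples, the mean level was 602 CPM per kilobase for Nefl, 185 for Nefm, 138 for Ina, 18.8 for Nefh and 5.97 for Prph. In injured samples it was 348 for Nefl, 125 for Nefm, 71.3 for Ina and 2.49 for Prph, with Nefh at 18.3 to 21.8. Over uninjured samples, the ranges of Nefm (138 to 215 CPM per kilobase) and Ina (122 to 146) overlapped, as did those of Nefh (10.5 to 26.7) and Prph (0.865 to 14.0). Within every uninjured sample, though, Nefm was above Ina and Nefh above Prph. After injury the ranges of the 5 genes did not overlap, with Nefm at 109 to 133 and Ina at 54.9 to 80.1 CPM per kilobase.

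The main comparison asks how much transcript of each gene RGCs held after crush. UMIs were summed over the cells of a sample, because cells of 1 pool are not replicates, and edgeR's quasi-likelihood test was run on the 14234 genes left by its low-count filter (Benjamini-Hochberg adjustment, threshold 0.05). All 5 members passed the filter. Nefl, Nefm and Ina were lower after injury and past the threshold, and Nefh and Prph were not past it. These are 3 of 5 members, beside 6256 of 14234 genes (44.0%) past the threshold in either direction and 3230 (22.7%) past it and lower. The same 3 members had no overlap between the conditions, which held for 6112 of 14234 genes (42.9%). The summed level of all 5 genes was 2716 to 3505 CPM (median 3269) in uninjured samples and 1949, 2086 and 1743 CPM in injured 1, 2 and 3/4.

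Nefl, the light chain on which the other chains build, was present at 1806 to 2280 CPM (median 2069) in the 6 uninjured samples and at 1162, 1293 and 1116 CPM in injured 1, 2 and 3/4. All 3 injured samples lay below all 6 uninjured samples, and the injured samples lay close together. The mean went from 2062 ± 162 CPM (SD, n = 6) to 1190 ± 91.8 CPM (SD, n = 3). This is 57.7% of the uninjured level, and edgeR gave a log2 fold change of -0.79 (standard error 0.16, adjusted p = 0.00156). Permuting the sample labels gave an exact two-sided p = 0.0238 on log2 CPM, the smallest p that 6 samples against 3 allow. Without injured 3/4 the log2 fold change was -0.73 (adjusted p = 0.0119 with edgeR). When similar libraries were added together, giving 3 uninjured and 2 injured units, it was -0.83 and no longer past the threshold (adjusted p = 0.0585 with edgeR).

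Ina codes for alpha-internexin, which forms filaments with the light and medium chains in central neurons. It was present at 397 to 476 CPM (median 457) in uninjured samples and at 261, 258 and 179 CPM in injured 1, 2 and 3/4. The injured samples were all below the uninjured samples, and injured 3/4 was the lowest. The mean went from 450 ± 29.7 CPM (SD, n = 6) to 233 ± 46.4 CPM (SD, n = 3), a log2 fold change of -0.95 (standard error 0.16, adjusted p = 4.93e-04 with edgeR, exact permutation p = 0.0238). Without injured 3/4 the log2 fold change was -0.77 (adjusted p = 0.00364 with edgeR). With similar libraries summed it was -1.04 (adjusted p = 0.0190 with edgeR), so Ina was the 1 member past the threshold in all 29 other settings that were run for it.

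Nefm codes for the medium chain. It was present at 463 to 720 CPM (median 631) in uninjured samples and at 440, 445 and 366 CPM in injured 1, 2 and 3/4. No injured sample reached an uninjured one, but the highest injured sample, injured 2, was close to the lowest uninjured sample, uninjured 1. The mean went from 620 ± 96.3 CPM (SD, n = 6) to 417 ± 44.4 CPM (SD, n = 3), a log2 fold change of -0.57 (standard error 0.17, adjusted p = 0.0186 with edgeR, exact permutation p = 0.0238). The call was lost without injured 1 (-0.61, adjusted p = 0.0515 with edgeR), without injured 3/4 (-0.46, adjusted p = 0.103 with edgeR) and with similar libraries summed (-0.64, adjusted p = 0.104 with edgeR). The fall of Nefm was thus less firm than those of Nefl and Ina.

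Nefh, the heavy chain, was present at 42.6 to 109 CPM (median 82.5) in uninjured samples and at 81.6, 88.9 and 74.4 CPM in injured 1, 2 and 3/4. The injured samples lay inside the uninjured range. Within the uninjured samples, uninjured 1 and 2 stood low (48.2 and 42.6 CPM), and the other 4 lay between 81.2 and 109 CPM. The mean went from 76.6 ± 26.1 CPM (SD, n = 6) to 81.6 ± 7.27 CPM (SD, n = 3), a log2 fold change of 0.08 (standard error 0.26, adjusted p = 0.83 with edgeR, exact permutation p = 0.738). The sign depended on the uninjured libraries used. Against uninjured 1 and 2 alone it was 0.83 and past the threshold (adjusted p = 3.41e-04 with edgeR), against uninjured 3 and 4 it was -0.11 (adjusted p = 0.425 with edgeR), and against uninjured 5 and 6 it was -0.23 (adjusted p = 0.145 with edgeR). Without injured 3/4 it was 0.17 (adjusted p = 0.716 with edgeR), and with each cell thinned to 8000 UMIs it was -0.18 (adjusted p = 0.558 with edgeR).

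Prph codes for peripherin and was the scarcest member. It was present at 1.68 to 27.2 CPM (median 10.2) in uninjured samples, from 5 UMIs in uninjured 1 to 152 UMIs in uninjured 3, and at 4.73, 2.02 and 7.79 CPM in injured 1, 2 and 3/4. The ranges overlapped, uninjured 5 was the highest sample, and the similar libraries uninjured 1 and 2 held 1.68 and 17.9 CPM. The mean went from 11.6 ± 9.73 CPM (SD, n = 6) to 4.85 ± 2.89 CPM (SD, n = 3), with a log2 fold change of -1.19 (standard error 0.75, adjusted p = 0.224 with edgeR, exact permutation p = 0.429). A difference of this size could not be told from the spread between samples. Without uninjured 5 the log2 fold change was -0.72 (adjusted p = 0.412 with edgeR), and without injured 3/4 it was -1.70 (adjusted p = 0.204 with edgeR). In cells with 3 to 5% of UMIs from the nuclear transcript Malat1 it turned to 0.21 (adjusted p = 0.912 with edgeR).

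**Figure D1:**
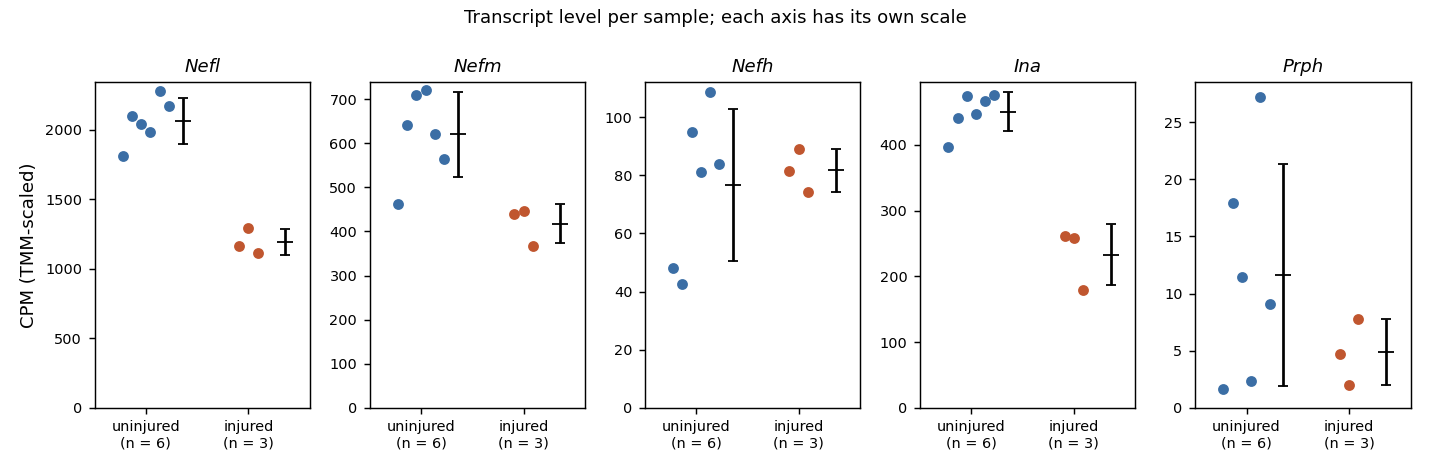
Level of each gene in CPM (TMM-scaled, vertical axes from 0, each with its own scale) in 6 uninjured (blue) and 3 injured (orange) samples, 1 point per sample, with the mean and SD in black. All injured points lie below all uninjured points for Nefl, Nefm and Ina, and the groups overlap for Nefh and Prph.

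Several measures of the samples moved with condition, and the 3 lower genes were recomputed for several of them. Depth per cell was lower after injury, and with each cell thinned to 8000 UMIs the log2 fold change was -0.93 for Nefl, -0.61 for Nefm and -1.02 for Ina, all past the threshold. Malat1, a nuclear transcript, took 1.72% to 4.82% of UMIs in uninjured libraries and 6.37% to 7.78% in injured libraries. In the cells whose Malat1 share was 3 to 5%, the log2 fold change was -0.62 for Nefl, -0.68 for Nefm and -0.79 for Ina, again past the threshold, and 0.52 for Nefh, which was not (adjusted p = 0.168 with edgeR). Only 7 cells of uninjured 5 and 8 of uninjured 6 fell in this window. Ribosomal protein genes took 2.51% to 4.50% of UMIs in uninjured and 5.29% to 6.04% in injured libraries, and in cells with 4 to 6% (30 to 170 per library) the log2 fold change was -0.89 for Nefl, -0.52 for Nefm and -1.01 for Ina, all past the threshold. Mitochondrial genes took 2.84% to 5.63% and 1.48% to 3.15%, which overlapped, and in cells with 2 to 4% (30 to 237 per library) it was -0.89 for Nefl, -0.51 for Nefm and -0.95 for Ina, also past the threshold, with Nefm close to it (adjusted p = 0.0499 with edgeR). With cells that carry mCherry left out and injured 1 and 2 as the injured samples, it was -0.73 for Nefl and -0.81 for Ina, both past the threshold, and -0.47 for Nefm, which was not (adjusted p = 0.101 with edgeR). The size of an RNA pool cannot be seen in CPM, so less neurofilament RNA per cell and more of other RNA cannot be told apart.

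Markers of other retinal cells also moved with condition. The 7 amacrine markers, all with UMIs, summed to 405 to 512 CPM (median 449) in uninjured samples and to 267, 230 and 133 CPM in injured 1, 2 and 3/4. Pax6, which RGCs express too, was the most abundant of them and the 1 past the threshold and lower, from a median of 328 to 119 CPM. Slc6a9 was past it and higher (5.16 to 21.2 CPM), and the other 5 were not past it, such as Gad1 (34.6 to 23.1 CPM) and Gad2 (31.5 to 26.9 CPM). The sum thus mostly follows Pax6. Cells with UMIs of at least 3 markers of 1 other class made up 12.4% to 44.1% of the cells of uninjured libraries and 5.52% to 17.6% of those of injured libraries. Such cells were found by whole counts, in which a deep cell shows a marker more readily, and depth was lower after injury. Without these cells the log2 fold change was -0.80 for Nefl, -0.50 for Nefm and -0.98 for Ina, all past the threshold, and Prph was at -0.41 in place of -1.19 (adjusted p = 0.595 with edgeR). The 7 markers of Müller glia summed to 117 to 184 CPM in uninjured samples and to 123, 140 and 109 CPM in injured samples, but these sums hide opposite moves. Of the 6 that could be tested, Glul (a median of 44.4 to 77.9 CPM), Rlbp1 (0.740 to 9.98 CPM) and Sox9 (0.453 to 13.5 CPM) rose and Dkk3 (89.5 to 16.6 CPM) and Apoe (5.25 to 1.58 CPM) fell. The 4 horizontal cell markers summed to 71.1 to 177 CPM and to 67.8, 79.7 and 70.1 CPM, with the defining marker Lhx1 at 0 in all samples. Calb1 (92.7 to 12.4 CPM) and Onecut1 (22.9 to 5.84 CPM) fell, and Onecut2 (21.6 to 54.6 CPM) rose and was the most abundant after injury. Their part in the results was not tested further. The other lists were low. The highest sum in any sample was 4.04 CPM for bipolar cells (with Vsx1 at 0), 32.8 CPM for rods (by median, Sag without injury at 2.71 CPM and Pde6b after it at 10.7 CPM), 2.36 CPM for cones, 18.4 CPM for microglia (by median, P2ry12 without injury and Cx3cr1 after it), 4.36 CPM for astrocytes (Pax2) and 4.04 CPM for endothelium and pericytes (Pecam1, with Cdh5 and Kcnj8 at 0).

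The make-up of the filament transcripts was also compared, as the share of each gene in the summed UMIs of the 5, which needs no scaling between samples. Nefl took 61.3% to 66.5% (median 64.9%) in uninjured samples and 59.6%, 62.0% and 64.0% in injured 1, 2 and 3/4, and these ranges overlapped (exact permutation p = 0.167). Nefm took 17.0% to 22.3% (median 18.8%) and 22.6%, 21.3% and 21.0%, which also overlapped (exact permutation p = 0.143). Nefh took 1.32% to 3.10% (median 2.53%) and 4.19%, 4.26% and 4.27%, so all injured samples lay above all uninjured ones (exact permutation p = 0.0238). Ina took 13.3% to 14.6% (median 14.0%) and 13.4%, 12.3% and 10.3%, and 1 injured sample, injured 1, lay inside the uninjured range (exact permutation p = 0.0476). Prph took 0.0620% to 0.776% (median 0.309%) and 0.243%, 0.0969% and 0.447%, which overlapped (exact permutation p = 0.690). None of the 5 shares was past 0.05 after adjustment for the 5 shares compared, and the smallest exact p of this design leaves little room for one to be. The share of Nefh stood at 4.19% to 4.27% in all injured samples while its own level in CPM did not differ from the uninjured level beyond the spread.

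How the transcripts were spread over cells was described on cells thinned at random to 8000 UMIs, so that depth does not enter, which kept 1654 uninjured and 1376 injured cells. The cells that injured 3 and 4 share are counted in both, here and in all numbers of injured cells below, so there are fewer distinct cells. A share of cells with a UMI depends on both level and depth and has no background here, because no cell type that lacks these genes was kept in the deposited data. Nefl had at least 1 UMI in 98.9% to 100% of the cells of an uninjured sample and in 94.0% to 98.0% after injury, and its median cell held 15 to 20 UMIs without injury and 6 to 7 after it. Nefm had UMIs in 90.5% to 96.4% of uninjured and in 74.9% to 86.9% of injured cells, and Ina in 91.5% to 98.0% and in 69.7% to 76.1%. For all 3 genes these ranges did not overlap between conditions. Nefl, Nefm and Ina were thus found in most RGCs of every sample, with fewer UMIs per cell after injury.

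Nefh and Prph were spread otherwise. Nefh had UMIs in 21.6% to 41.9% of the cells of uninjured samples (median 37.0%) and in 24.8% to 27.5% after injury, which overlapped. Of 1654 uninjured cells, 538 held 1 or 2 UMIs of Nefh and 78 held 3 or more, and of 1376 injured cells 304 held 1 or 2 and 59 held 3 or more. Prph had UMIs in 1.05% to 4.00% of the cells of uninjured samples and in 1.20% to 4.32% after injury. In all, 1614 of 1654 uninjured cells held 0 UMIs of Prph, and 3 cells with at least 10 UMIs each held 31.8% of its thinned UMIs. The highest cell held 14 of 8000 UMIs without injury and 5 after it, where no cell reached 10.

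The top 10% of cells held more of each abundant transcript after injury. For Nefl they held 16.9% to 19.5% of the thinned UMIs in uninjured samples and 27.2% to 30.3% in injured samples, and for Ina 21.7% to 24.7% and 29.9% to 32.9%. For Nefm they held 23.7% to 28.9% and 30.5% to 34.9%. In all 3 genes every injured sample was above every uninjured sample, which is a description with no test. Lower counts alone make such a share larger, because counting noise is then larger, and the part of this was not tested. For Nefh the top 10% held 44.0% to 63.3% and 62.6% to 64.2%, which overlapped, and for Prph they held 100% in every sample because fewer than 10% of cells had a UMI. In whole cells, before thinning, the median uninjured cell of a sample held 40 to 64 UMIs of Nefl, 10 to 21 of Nefm, 8 to 14 of Ina and 1 to 2 of Nefh.

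**Figure D2:**
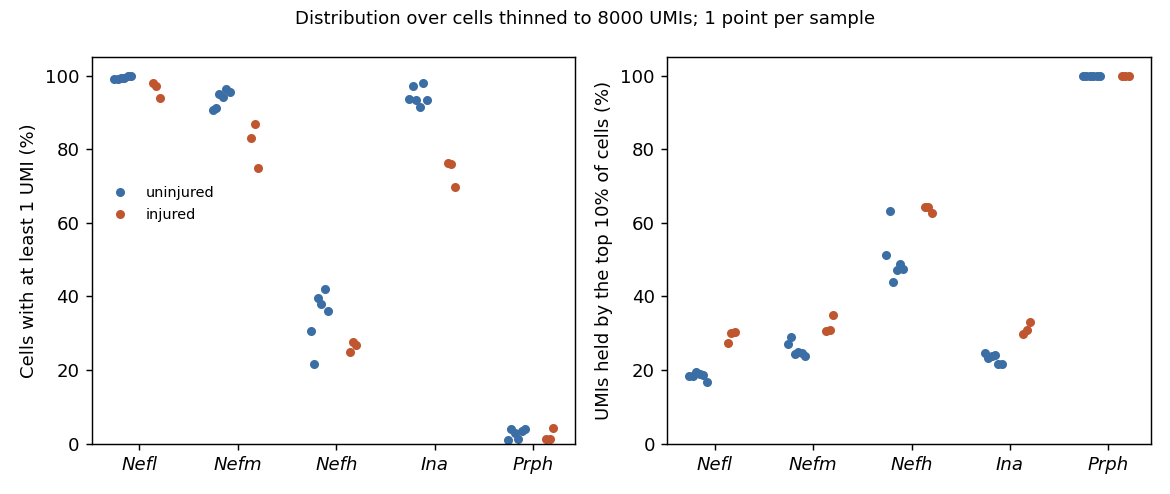
Distribution of the 5 genes over cells thinned to 8000 UMIs, 1 point per sample, for uninjured (blue, 6) and injured (orange, 3) samples. The left axis gives the percent of cells with at least 1 UMI and the right axis the percent of a gene's UMIs in the top 10% of cells, and Nefl, Nefm and Ina show fewer cells with a UMI and a larger top share after injury.

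Alpha RGCs, large cells with thick axons, are marked by Spp1, which codes for osteopontin, and by Kcng4, which codes for a potassium channel subunit. The first aim was to compare cells with at least 1 UMI of both genes after thinning with all other cells. No cell met this rule, 0 of 1654 uninjured and 0 of 1376 injured cells, which allows a share of up to 0.181% of uninjured thinned cells with UMIs of both. This sets no limit on cells that express both, because thinning removes UMIs of rare genes. In whole cells, 7 of 1683 uninjured and 8 of 1609 injured cells (7 of them in injured 3 and 4, which share cells) had both genes, with no more than 2 in any uninjured library, so no test over libraries could be run. As a description, the median of the 7 uninjured cells was 551 CPM for Nefh, beside 48.6 CPM in the other 1676 cells. For Nefl these medians were 3846 and 2035 CPM, for Nefm 1238 and 569 CPM, for Ina 982 and 428 CPM, and for Prph 166 and 0 CPM. The median of the 8 injured cells was 225 CPM for Nefh, beside 0 CPM in the other 1601 cells. By median, cells with both genes were thus high in all 5 transcripts without injury. Single cells were not all high, with the lowest uninjured cell at 60.8 CPM for Nefh and 0 CPM for Prph. Cells with both genes are also few and were found by whole counts, in which a deep cell shows a rare gene more readily.

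Cells with at least 1 UMI of Spp1 after thinning, called Spp1 cells here, were compared in their place, a class chosen after the data had been seen. There were 33 of them in the uninjured libraries, 9, 8, 11 and 5 in uninjured 3, 4, 5 and 6, and none among the 95 and 102 thinned cells of uninjured 1 and 2. Whole counts of Spp1 cells and of all other thinned cells were summed in each of the 4 libraries, and edgeR's test was run with library as a block. These libraries form the similar pairs uninjured 3 and 4 and uninjured 5 and 6, so independent units may be fewer. No fit with similar libraries summed was run for Spp1 or Kcng4 cells. The 5 genes did not enter the choice of cells. Nefl, Nefm, Nefh and Prph were higher in Spp1 cells and past the threshold, and Ina was not past it. These 4 of 5 stand beside 601 of 11758 genes (5.11%) past the threshold and 306 (2.60%) past it and higher. Without uninjured 4, or without uninjured 6, 310 genes were past it.

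Nefh was at 288, 264, 465 and 404 CPM in the Spp1 cells of uninjured 3, 4, 5 and 6 and at 89.3, 81.4, 79.8 and 65.2 CPM in the other cells. It was higher in Spp1 cells in 4 of 4 libraries, with no overlap, and by a log2 difference of 2.13 (standard error 0.17, adjusted p = 1.16e-07 with edgeR). Nefm was at 1441, 1123, 975 and 1139 CPM in Spp1 cells and at 702, 739, 583 and 520 CPM in the others. It was also higher in 4 of 4 libraries, by 0.88 (standard error 0.14, adjusted p = 3.50e-04 with edgeR). Nefl was at 3016, 2641, 3474 and 2852 CPM in Spp1 cells and at 2074, 2039, 2145 and 2077 CPM in the others, higher in 4 of 4 libraries by 0.52 (standard error 0.14, adjusted p = 0.0247 with edgeR). Among these 3 chains the difference was thus largest in the heavy chain, although the differences were not tested against each other.

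Ina was at 639, 491, 745 and 695 CPM in the Spp1 cells of uninjured 3, 4, 5 and 6 and at 484, 462, 436 and 452 CPM in the others. It was higher in 4 of 4 libraries, but the log2 difference of 0.47 was not past the threshold (standard error 0.14, adjusted p = 0.0606 with edgeR). Prph was at 54.9, 0, 203 and 53.8 CPM in Spp1 cells and at 9.68, 2.50, 13.9 and 6.52 CPM in the others. It was higher in 3 of 4 libraries, by a log2 difference of 2.93 (standard error 0.45, adjusted p = 0.00498 with edgeR). The exception, uninjured 4, had 0 UMIs of Prph in its 8 Spp1 cells, which allows up to 8.98 CPM, so a level like that of its other cells could not have been seen. The call of Prph was lost without uninjured 6 (2.85, adjusted p = 0.0698 with edgeR), and 77 of its 122 UMIs in Spp1 cells came from uninjured 5, without which the difference was 2.27 (adjusted p = 0.00164 with edgeR).

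Spp1 cells differed from other cells in more than these genes. They were deeper in each of the 4 libraries, with medians of 30291 to 66965 UMIs beside 20652 to 34673 UMIs, and 18 of 33 (54.5%) carried UMIs of at least 3 markers of another class, beside 482 of 1621 other cells (29.7%). Such markers were counted in whole cells, in which a deep cell shows a marker more readily, and the part of depth was not tested. Spp1 cells also carried markers of other RGC subsets, given here in CPM without TMM factors. Cartpt was at 2413, 2531 and 1941 CPM in the Spp1 cells of uninjured 3, 4 and 6 beside 607, 581 and 840 CPM, though not higher in uninjured 5 (690 beside 801 CPM), and Opn4 was higher in uninjured 4, 5 and 6. Foxp2 was lower in all 4. Whether all Spp1 cells are alpha cells was not tested. With sums of thinned counts, in which each cell gives the same number of UMIs, the log2 difference was 1.68 for Nefh, 0.75 for Nefm and 3.41 for Prph, all past the threshold. On that scale Nefl was at 0.20 and not past it (adjusted p = 0.812 with edgeR), and Ina was at 0.11 (adjusted p = 0.930 with edgeR). The call of Nefl was also lost with any 1 of the 4 libraries left out, at log2 differences of 0.40 to 0.56. Nefm and Nefh were past the threshold with each library left out in turn, at 0.74 to 0.97 and 1.92 to 2.29. The part of mixed droplets was not tested without injury, because leaving out cells with markers of another class left enough Spp1 cells in only 1 uninjured library.

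After injury there were 15, 9, 36 and 32 Spp1 cells in injured 1, 2, 3 and 4, where cells shared by injured 3 and 4 are counted in both. Again they were the deeper cells (25344 to 38130 UMIs beside 12420 to 15531). They more often carried markers of another class, again counted in whole cells (26.1% beside 11.4%, with the same cells counted in both). All 5 genes were higher in them and past the threshold. Of all 11642 genes, 2711 (23.3%) were past it in either direction and 1328 were past it and higher. Without injured 3/4, 1560 genes were past it in either direction. Nefh was at 184, 266 and 197 CPM in the Spp1 cells of injured 1, 2 and 3/4 and at 68.9, 75.5 and 52.9 CPM in the others, a log2 difference of 1.72 (standard error 0.13, adjusted p = 1.13e-08 with edgeR). Nefm was at 757, 580 and 574 CPM beside 390, 419 and 325 CPM (0.76, standard error 0.11, adjusted p = 2.67e-05 with edgeR). Both were higher in 3 of 3 samples with no overlap. Ina was at 375, 428 and 260 CPM beside 243, 235 and 159 CPM (0.73, standard error 0.11, adjusted p = 5.15e-05 with edgeR), and Nefl at 1721, 1422 and 1396 CPM beside 1065, 1235 and 1055 CPM (0.44, standard error 0.10, adjusted p = 0.00282 with edgeR). Prph was at 24.4, 0 and 15.9 CPM beside 2.71, 2.14 and 6.68 CPM, higher in 2 of 3 samples (1.79, standard error 0.51, adjusted p = 0.0166 with edgeR). Without injured 1, Prph (1.05, adjusted p = 0.258 with edgeR) and Nefl (0.31, adjusted p = 0.0631 with edgeR) were not past the threshold. The 0 of Prph in injured 2 allows up to 10.4 CPM.

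After injury enough Spp1 cells remained without markers of another class, 9, 6, 24 and 29 in injured 1, 2, 3 and 4. In these the log2 difference was 1.84 for Nefh, 0.73 for Nefm, 0.60 for Ina and 0.43 for Nefl, all past the threshold, and 1.38 for Prph, which was not (adjusted p = 0.107 with edgeR). With sums of thinned counts it was 2.30 for Nefh, 0.80 for Nefm, 0.81 for Ina and 0.55 for Nefl, all past the threshold, and Prph had too few UMIs to be tested.

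Whether the Spp1 difference itself changed with injury was tested as an interaction in 1 fit over both conditions. With all samples none of the 5 members was past the threshold in edgeR and none had an unadjusted p under 0.05, beside 538 of 13050 genes (4.12%) past it, or 298 without injured 2 and 197 without injured 3/4. No other tool was run for it. The change of the log2 difference was -0.42 for Nefh (standard error 0.24, adjusted p = 0.390 with edgeR) and 0.25 for Ina (standard error 0.19, adjusted p = 0.559 with edgeR). It was -0.09 for Nefl, -0.13 for Nefm and -1.12 for Prph, with standard errors of 0.18, 0.19 and 0.85. With 1 sample left out at a time, it ran from -0.51 (without uninjured 3) to -0.17 (without uninjured 5) for Nefh, from -1.88 (without injured 1) to -0.42 (without injured 3/4) for Prph and from 0.18 (without injured 2) to 0.45 (without uninjured 5) for Ina. The unadjusted p was under 0.05 for Nefh without uninjured 3 or 4, for Prph without uninjured 4 or injured 1 and for Ina without uninjured 5, and none was past the threshold after adjustment. A different call in the 2 conditions, as for Ina, is thus not in itself a difference between them.

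**Figure D3:**
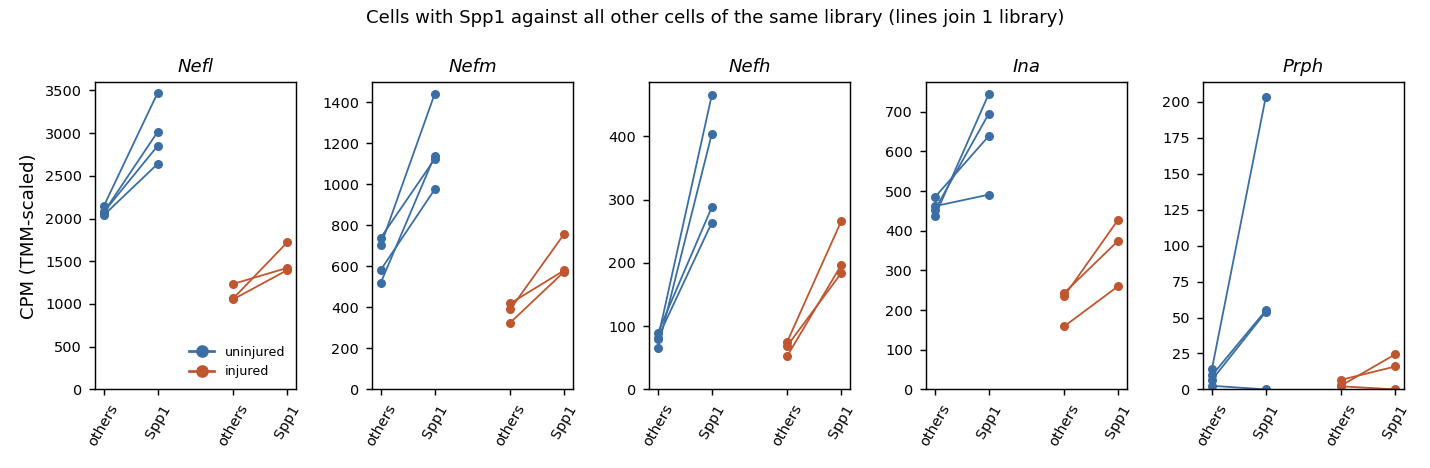
Level of each gene in CPM (TMM-scaled, vertical axes from 0) in all other cells and in Spp1 cells of the same library, joined by a line, for 4 uninjured (blue) and 3 injured (orange) samples. The lines of Nefh and Nefm rise in all 7 samples, and 2 lines of Prph end at 0 UMIs.

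Spp1 cells made up 0% of thinned cells in uninjured 1 and 2, where Nefh was lowest, 1.24% to 4.35% in uninjured 3 to 6, and 3.59% to 8.91% in the injured libraries. The 0 of 95 and 0 of 102 thinned cells in uninjured 1 and 2 leave room for a small share. The other cells of uninjured 3 to 6 held 65.2 to 89.3 CPM of Nefh. Uninjured 1 and 2 held less (48.2 and 42.6 CPM, with TMM factors of a separate fit). Among the uninjured libraries Nefh was higher where the share was higher, at 81.2 CPM in uninjured 4 (1.24%), 83.8 CPM or more in uninjured 6 and 3 (2.50% each) and 109 CPM in uninjured 5 (4.35%), which is a description with no test. Across conditions this did not hold, since the share was highest in injured 3 and 4 (7.83% and 8.91%) and injured 3/4 held 74.4 CPM. With every cell that had a UMI of Spp1 or Kcng4 after thinning left out, the log2 fold change of Nefh with injury was 0.04 (adjusted p = 0.905 with edgeR), and those of Nefl, Nefm and Ina were -0.79, -0.60 and -0.99, all past the threshold.

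Kcng4 was counted too rarely for a class of thinned cells, so cells with at least 1 UMI of it in the whole cell were used, also a choice made after the data had been seen. There were 6, 17, 8 and 5 of them in uninjured 3, 4, 5 and 6, and they were deeper than the other cells in 4 of 4 libraries (27412 to 49814 beside 20079 to 34137 UMIs). Nefm was at 1183, 1035, 1111 and 1037 CPM in these cells and at 726, 736, 569 and 521 CPM in the others, higher in 4 of 4 libraries, and it was past the threshold (log2 difference 0.78, standard error 0.17, adjusted p = 0.0163 with edgeR). This is 1 of 5 members, beside 143 of 11768 genes (1.22%), a count that was 333 without uninjured 3, 66 without uninjured 5 and 58 without uninjured 6. Nefh was at 150, 172, 435 and 390 CPM beside 97.3, 81.0, 85.2 and 66.9 CPM, also higher in 4 of 4 libraries, but its difference of 1.66 was not past the threshold (standard error 0.34, adjusted p = 0.103 with edgeR). Nefl (0.47), Ina (0.50) and Prph (3.33) were not past it either. The call of Nefm was lost without uninjured 5 (0.72, adjusted p = 0.302 with edgeR) or uninjured 6 (0.65, adjusted p = 0.265 with edgeR), and that of Nefh was gained without uninjured 3 (1.95, adjusted p = 0.00876 with edgeR) or uninjured 4 (1.89, adjusted p = 0.00947 with edgeR). Prph passed the threshold without uninjured 4 (3.87, adjusted p = 1.16e-07 with edgeR), the library with 0 UMIs of it in these cells. After injury 2 of 4 libraries held enough Kcng4 cells, both from the pair that shares its cells, so no test was run.

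Only uninjured 5 held enough thinned cells with Kcng4, 6 of them. There Nefh was at 192 beside 101 CPM, a smaller difference than in the whole-cell class (435 beside 85.2 CPM). Levels of the thinned class are given without TMM factors and those of the whole-cell class with them. Prph was at 5.18 beside 27.2 CPM, from 1 UMI, the reverse of the whole-cell class (222 beside 14.6 CPM). These 6 cells are among the 8 of the whole-cell class and hold 37 of its 137 UMIs of Nefh and 1 of its 70 UMIs of Prph, so the other 2 cells carry most of the values of that class in uninjured 5.

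Other marker genes of RGC subsets were used to describe the members without a test, in uninjured thinned cells with and without a UMI of the marker. Levels by subset marker, here and in the next paragraph, are in CPM without TMM factors. In cells with Opn4, which codes for the light-sensing protein melanopsin, the median over 6 libraries was 1301 CPM for Nefl and 353 CPM for Nefm, beside 2144 and 646 CPM in cells without it, and Nefm was lower in 6 of 6 libraries. In these cells Nefh was higher in 5 of 6 libraries (126 beside 79.4 CPM) and Ina in 4 of 6 (500 beside 452 CPM). Cells with Eomes, a transcription factor of melanopsin cells and their relatives, were lower in Nefl and Nefm in 6 of 6 libraries (1510 beside 2140 CPM, and 401 beside 653 CPM). The same cells were higher in Prph in 6 of 6 libraries (48.3 beside 4.63 CPM) and in Nefh in 5 of 6 (131 beside 79.7 CPM). For Prph, uninjured 1 held 1 UMI in these cells, and 42 of the 48 UMIs in uninjured 2 came from 1 cell. Prph was thus high in Eomes cells, in which the light and medium chains were low, and also in Spp1 cells, in which they were high.

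Cells with Foxp2, a transcription factor of the F-type RGCs, were low in Prph (0.422 beside 12.3 CPM) and in Nefl in 6 of 6 libraries (1943 beside 2149 CPM). Cells with Tfap2d, a transcription factor, were higher in Nefm (715 beside 617 CPM), Nefh (99.8 beside 77.3 CPM) and Ina (498 beside 443 CPM) in 6 of 6 libraries, and lower in Prph (0 beside 12.4 CPM). Cells with Neurod2 were higher in Nefl (2422 beside 2097 CPM) and Nefm (801 beside 657 CPM) in 5 of 5 libraries. Cells with Cartpt, which marks direction-selective RGCs, were higher in Nefl and in Nefm in 3 of 6 libraries each. Prph was also lower in cells with Tbr1 (2.25 beside 12.3 CPM), Neurod2 (0 beside 13.0 CPM), Zic1 (0 beside 10.8 CPM) and Cartpt (2.65 beside 20.9 CPM, in 5 of 6 libraries). It was higher in cells with Opn4 in 4 of 6 libraries (29.9 beside 7.55 CPM). Many of these values are 0 UMIs in few cells. Where a 0 whose limit of 3 counts lies above the level of the other cells is not counted, Prph was lower in 5 of 6 libraries in Foxp2 cells and in Tfap2d cells, in 5 of 5 in Tbr1 cells and in Neurod2 cells, and in 3 of 4 in Zic1 cells. The libraries not counted were uninjured 1 for Foxp2 and Tfap2d and uninjured 4 for Zic1. This rule covers 0 UMIs alone, and in Tbr1 cells no uninjured library held more than 2 UMIs of Prph. Among these subset markers, Prph was thus low without injury in cells with Foxp2, Tbr1, Neurod2, Tfap2d, Zic1 or Cartpt and high in cells with Spp1, Eomes or Opn4, though not in every library. Cartpt itself fell with injury, from a median of 620 to 43.6 CPM with TMM factors (adjusted p = 2.93e-04 with edgeR). Cells with it numbered 932 of 1654 thinned cells without injury and 104 of 1376 after it. Whether Cartpt cells are the same kind of cells in both conditions was not tested. After injury Prph was higher in Cartpt cells in 4 of 4 libraries. Prph was lower in Foxp2 cells and in Tbr1 cells in 2 of 4 libraries each, and in Tfap2d cells in 3 of 4. It was higher in Opn4 cells in 4 of 4 libraries and in Eomes cells and Spp1 cells in 3 of 4 each. In Tbr1, Tfap2d, Eomes and Spp1 cells, 1 lower library each held 0 UMIs of it. No library held more than 6 UMIs of it in Cartpt, Foxp2 or Tbr1 cells. Nefm was at 572, 484, 642 and 649 CPM in the Cartpt cells of injured 1, 2, 3 and 4 beside 411, 419, 351 and 351 CPM in the others, where injured 3 and 4 share cells.

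Across single cells the members varied together to different degrees, given as Spearman's rho within each library over thinned cells and averaged over the 6 uninjured libraries, with no test. Cells of 1 library share their pool, and rare transcripts give rho near 0. Nefl and Nefm, the neighbours on chromosome 14, had the highest mean rho of 0.479 (0.271 to 0.593 over libraries). It was 0.235 for Nefm with Ina, 0.212 for Nefl with Ina and 0.160 for Nefm with Nefh, each above 0 in 6 of 6 libraries. For Nefh with Ina it was 0.115, for Nefl with Nefh 0.0855 and for each of the 4 pairs with Prph it was nearer to 0. In the 3 injured samples the mean rho was 0.507 for Nefl with Nefm, 0.265 for Nefl with Ina, 0.231 for Nefl with Nefh and 0.164 for Nefh with Ina. It was lower than without injury for Nefm with Ina (0.157).

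Among 4882 genes with a UMI in at least 20% of the thinned cells of every uninjured library, the 5 most alike to each member by mean rho over these 6 libraries were taken, with the members themselves left out of the search. For Nefl they were Pkm (0.413), Hspa8 (0.341), Stmn3 (0.337), Hsp90aa1 (0.332) and Atp5b (0.313). For Nefm they included Pkm (0.315), Hsp90aa1 (0.312), Map1a (0.268) and Rab6b (0.257), and for Ina they were Gapdh (0.263), Hspa8 (0.249), Pkm (0.247), Snap25 (0.236) and Cox4i1 (0.231). Nefl, Nefm and Ina all had Pkm, which codes for a glycolytic enzyme, among their 5. For Nefh they were Atp1b1 (0.215), Ywhaz (0.195), Pcdh9 (0.180), Cox5a (0.147) and Nap1l5 (0.145). For Prph they were Lrrc4c (0.199), Rgs4 (0.186), Etl4 (0.180), Hif1a (0.178) and Sema5a (0.176), and none of these was among the 5 of another member. After injury, 7 of these 21 different genes passed the threshold, beside 44.0% of all genes, and 6 of the 7 fell. Pkm went from a mean of 1811 to 469 CPM (adjusted p = 2.89e-04 with edgeR), Gapdh, Snap25, Rab6b, Nap1l5 and Sema5a fell too (-1.27, -1.51, -0.79, -1.79 and -1.03), and only Hsp90aa1, a chaperone gene, rose, from 1154 to 2848 CPM (adjusted p = 1.39e-04 with edgeR). The other like genes given were not past it, such as Hspa8 (-0.15) and Stmn3 (-0.11) for Nefl.

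Genes whose products build, modify, move or clear filaments were followed in 4 lists. Over all 14234 genes tested, 3026 (21.3%) rose, 3230 (22.7%) fell and the median log2 fold change was -0.03. Of 10 other intermediate filament genes, 5 passed the filter on low counts, of which 3 rose and 1 fell, with a median of 1.44 over those 5. Vim, which codes for vimentin, a filament protein of glia and of immature or regenerating cells, was at 0.337 to 2.76 CPM in uninjured samples and at 38.0, 44.7 and 34.6 CPM in injured 1, 2 and 3/4, a log2 fold change of 4.77 in edgeR (standard error 0.32, adjusted p = 5.22e-07). Of the Müller glia markers, Glul, Rlbp1 and Sox9 rose as well, and Dkk3 and Apoe fell. Without cells with markers of another class Vim was at 5.39 (adjusted p = 9.81e-09 with edgeR), and whether its UMIs came from RGCs or from RNA of glia was not tested. Lmna, which codes for a protein of the nuclear lamina, went from 24.3 to 43.8 CPM to 99.1, 102 and 107 CPM (1.70, standard error 0.20, adjusted p = 3.67e-05 with edgeR). Lmnb1, which codes for another lamin, went from 7.17 to 16.2 CPM to 36.4, 29.0 and 32.0 CPM (1.44, standard error 0.21, adjusted p = 2.02e-04 with edgeR). Synm, which codes for synemin, a filament protein that joins others, fell from 14.0 to 25.2 CPM to 5.08, 8.08 and 8.59 CPM (-1.42, standard error 0.23, adjusted p = 4.38e-04 with edgeR). Nes, Gfap, Des, Krt8 and Krt18 had too few UMIs to be tested, at no more than 2.69 CPM in any sample. The 4 genes past the threshold kept direction and call without injured 3/4.

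Of 17 genes for kinases and their activators, a phosphatase and an isomerase that act on neurofilaments, 3 rose and 5 fell, with a median log2 fold change of 0.03. Camk2a, which codes for a calcium-dependent kinase, was at 55.3 to 78.5 CPM in uninjured samples and at 13.8, 22.7 and 15.6 CPM in injured samples (-1.96, standard error 0.19, adjusted p = 9.14e-06 with edgeR). Cdk5r2, which codes for an activator of the kinase Cdk5, was at 30.2 to 62.3 CPM and at 17.2, 15.0 and 16.7 CPM (-1.47, standard error 0.23, adjusted p = 2.97e-04 with edgeR). Gsk3b, which codes for a kinase of neurofilament tails, was at 474 to 620 CPM and at 1023, 1003 and 1097 CPM (0.99, standard error 0.14, adjusted p = 1.74e-04 with edgeR). Mapk10, which codes for the neuronal kinase JNK3, was at 304 to 404 CPM and at 201, 198 and 160 CPM (-0.90, standard error 0.16, adjusted p = 5.95e-04 with edgeR). The genes of this list moved in both directions, and the share past the threshold, 8 of 17, was near the 44.0% over all genes. All 8 genes past the threshold kept direction and call without injured 3/4.

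Of 10 genes for motors and linkers, 2 rose and 2 fell, with a median log2 fold change of 0.06. Dync1h1, which codes for the heavy chain of the dynein motor, was at 131 to 196 CPM in uninjured samples and at 311, 260 and 223 CPM in injured samples (0.68, standard error 0.16, adjusted p = 0.00511 with edgeR). Dst, which codes for a linker of filaments to other parts of the cytoskeleton, was at 323 to 467 CPM and at 639, 555 and 587 CPM (0.57, standard error 0.15, adjusted p = 0.00966 with edgeR). Dctn1, which codes for a subunit of the dynactin complex that works with dynein, was at 110 to 137 CPM and at 81.8, 85.6 and 73.3 CPM (-0.64, standard error 0.13, adjusted p = 0.00156 with edgeR), and Myo5a, which codes for a myosin that binds neurofilaments, at 238 to 343 CPM and at 211, 211 and 199 CPM (-0.49, standard error 0.16, adjusted p = 0.0251 with edgeR). The kinesin genes Kif5a (-0.27), Kif5b (-0.22) and Kif5c (-0.15), whose products carry cargo outward along axons, were not past the threshold. Without injured 3/4 the call of Myo5a was lost (-0.44, adjusted p = 0.105 with edgeR), and the other 3 kept theirs.

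Of 11 genes for turnover, chaperones and RNA-binding proteins, 6 rose and 1 fell. Cryab, which codes for a small heat shock protein that binds filaments, was at 0 to 6.87 CPM (median 0.0919) in uninjured samples and at 45.2, 64.0 and 64.5 CPM in injured samples (4.64, standard error 0.70, adjusted p = 2.34e-04 with edgeR). Hspb1, which codes for another small heat shock protein, was at 29.0 to 97.7 CPM and at 143, 187 and 185 CPM (1.43, standard error 0.33, adjusted p = 0.00456 with edgeR). Arhgef28, which codes for a protein that binds the messenger RNA of the light chain, was at 4.53 to 10.9 CPM and at 27.3, 23.6 and 26.2 CPM (1.86, standard error 0.25, adjusted p = 9.80e-05 with edgeR). The 2 calpain genes, for proteases that cut neurofilaments, moved in opposite directions, with Capn2 at 1.16 (standard error 0.13, adjusted p = 2.81e-05 with edgeR) and Capn1 at -0.92 (standard error 0.24, adjusted p = 0.00895 with edgeR). These 5 genes kept direction and call without injured 3/4. The calpain genes and the kinesin genes lie outside the rule for named genes and were chosen after their values were seen.

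**Figure D4:**
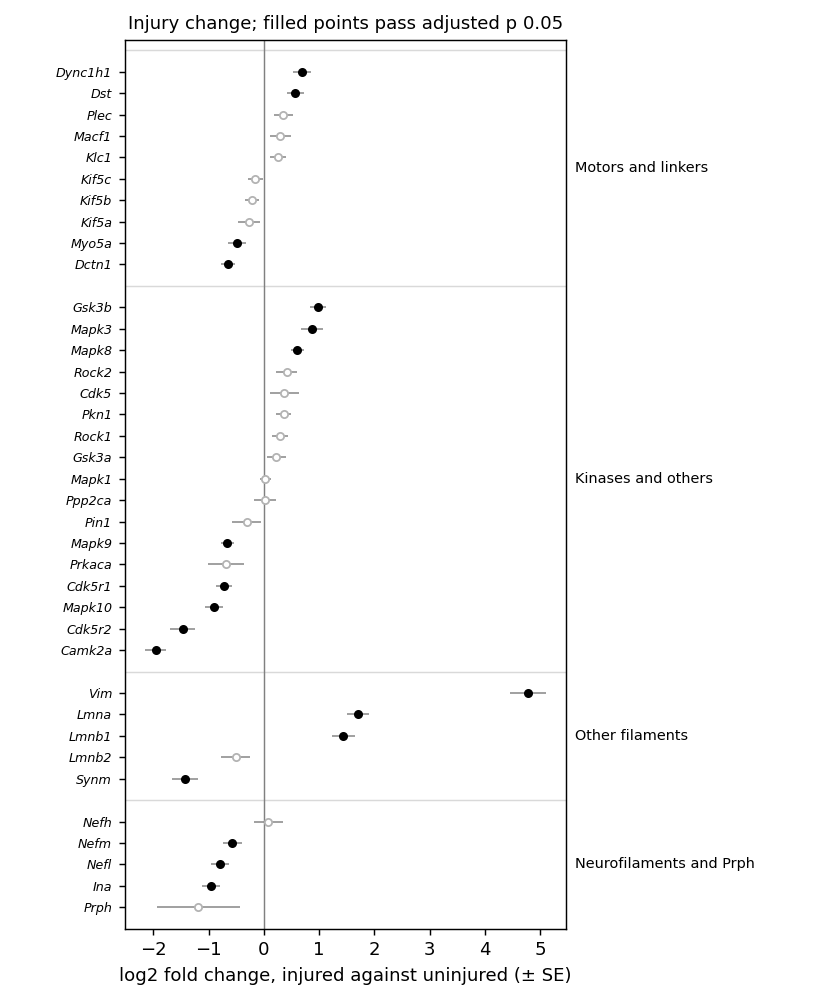
Log2 fold change, injured against uninjured, with its standard error, for the 5 members (bottom) and the tested genes of the lists of other filaments, kinases, and motors and linkers (6 uninjured and 3 injured samples). Filled points are past an adjusted p of 0.05, with 3 of 5 members lower and 3 of 5 other filament genes higher.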

How the data were processed

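Single-cell RNA sequencing libraries of mouse RGCs, 6 uninjured and 4 injured, were analysed. The authors' reads were aligned to mm39 with Cell Ranger (7.0.1 in the submitters' notes, an earlier version in the paper), and the deposited values are unnormalized counts of UMIs in the cells selected as RGCs. The paper and the labels also differ on the reagent kit and the sequencer, and the design text on sorting after panning. The members and lists were chosen with earlier results of these data known. UMI counts were summed over cells with pandas 2.3.3, scipy 1.17.1 and numpy 2.4.6 under Python 3.11.15, and injured 3 and 4 were averaged with rounding. Doublets were not called. Cells were thinned without replacement to 8000 UMIs (seed 31), and 29 uninjured and 233 injured cells with fewer UMIs were left out.

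Sums were tested with edgeR 4.0.16 under R 4.3.3 (TMM, filterByExpr, robust dispersion and quasi-likelihood fit, Benjamini-Hochberg at 0.05), with standard errors derived from the F statistic. Classes of cells needed at least 5 cells in a library and had library as a block. Single values were compared by permuting sample labels (exact, two-sided). The fits were also checked on simulated data, and no outcome of that check is given here. The comparison planned between cells with both Spp1 and Kcng4 and all others could not be run, because no thinned cell had both, and the Spp1 and Kcng4 classes were chosen after seeing the data.

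Named genes were the 5 members, up to 4 called genes of each list with the largest absolute log2 fold change, and the 5 genes with the highest mean rho to each member. Not all of them are given. The upper limit given for a 0 is that of 3 counts, for counting error alone. Gene positions on GRCm39 came from GENCODE. Figures were drawn with matplotlib 3.10.9. Alternatives were DESeq2 1.42.0, library totals, upper-quartile factors, no filter on low counts, thinned cells, cells without markers of another class, all 10 libraries as samples, similar libraries summed, libraries 1 to 4 (their number as a block, or none), and each sample left out. Those added after seeing the data left out cells with Spp1 or Kcng4, with Xist, or with mCherry (and injured 3/4), kept cells with 3 to 5% of UMIs from Malat1, at least 1% or 4 to 6% from ribosomal protein genes or 2 to 4% from mitochondrial genes, or took 1 pair of uninjured libraries at a time. For injured Spp1 cells they also left out cells with markers of another class, asked for 3 UMIs of Spp1, or summed thinned counts.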

Additional observations from a re-analysis of the deposited data

How the results depend on the processing

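Depth limits Prph, with 5 to 152 UMIs in uninjured samples, and the Spp1 and Kcng4 classes, with 5 to 17 cells in an uninjured library. Planned tests of cells with both Spp1 and Kcng4, with at least 1 or 2 UMIs of each after thinning or 1 in whole cells, could not be run, since no uninjured library held 5 such cells. Leaving thinned cells with both genes out of the injury comparison left none out. The classes of Spp1 cells with at least 3 UMIs, or without markers of another class, had enough cells in only 1 uninjured library. Causes of the changes below were not tested.

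For injury, Ina kept its direction and call in all 29 settings (log2 fold change -1.05 to -0.77). The count of 6256 genes was within 1.5 times in all settings but cells with 3 to 5% Malat1 (3528), and with samples left out it ran from 4961 to 6420. It was 8230 in libraries 1 to 4 without a block and 8307 with their number as a block. The pairing by number had r of -0.06, 0.01, -0.03 and -0.05 over genes, so it pairs nothing but numbers. With the block, Nefl was at -0.76, Nefm at -0.64, Ina at -1.03, Nefh at 0.29 and Prph at -0.17. With similar libraries summed, Nefl (-0.83) and Nefm (-0.64) were no longer past the threshold, nor was Nefm without mCherry cells and injured 3/4 (-0.47). With samples left out, Nefm ran from -0.63 to -0.46 and was lost without injured 1 or injured 3/4. Nefh turned to -0.18 in thinned cells, -0.15 without Xist cells, -0.11 against uninjured 3 and 4 and -0.23 against uninjured 5 and 6, passed the threshold at 0.83 against uninjured 1 and 2, and ran from -0.0192 (without uninjured 2) to 0.20 with samples left out. Prph turned to 0.21 in cells with 3 to 5% Malat1, where uninjured 5 and 6 kept 7 and 8 cells and Nefh was at 0.52. The share of Prph in the UMIs of the 5 genes, with an injured minus uninjured difference of -0.0852 points, ran from -0.178 to 5.53e-04 with samples left out and turned without uninjured 5. The other 4 shares kept their direction.

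For Spp1 cells without injury, Nefm and Nefh kept direction and call in all 9 settings. With sums of thinned counts, 200 genes were past the threshold in place of 601 and Nefl was at 0.20 and not past it. With Spp1 counted in whole cells, Ina passed the threshold at 0.39 (adjusted p = 0.0496 with edgeR, 0.0496 to 0.930 over its settings). With libraries left out, the count ran from 310 (without uninjured 4 or 6) to 487, Nefl from 0.40 to 0.56, lost each time, and Prph from 2.27 to 3.18, lost without uninjured 6. After injury the count of 2711 was 1739 without cells with markers of another class, where Prph was lost at 1.38 (adjusted p = 0.107 with edgeR, 0.00448 to 0.258 over its settings), and 999 with sums of thinned counts. With at least 3 UMIs of Spp1, in injured 1 and 3/4, all 5 members kept their call. With samples left out the count ran from 1560 (without injured 3/4) to 2225, Nefl from 0.31 to 0.55 and Prph from 1.05 to 1.97, both lost without injured 1, and Prph was not tested in 2 settings. For the interaction the count of 538 ran from 197 (without injured 3/4) to 679, and was 298 without injured 2. Nefl ran from -0.21 to 0.0666, Nefm from -0.23 to 0.0049, Nefh from -0.51 to -0.17, Ina from 0.18 to 0.45 and Prph from -1.88 to -0.42, none past the threshold. For Kcng4 cells the count of 143 ran from 58 (without uninjured 6) to 333 (without uninjured 3), and was 66 without uninjured 5. Nefm ran from 0.65 to 0.89, Nefh from 1.32 to 1.95 and Prph from 2.92 to 3.87. Nefm was lost without uninjured 5 or 6, Nefh was gained without uninjured 3 or 4, and Prph was gained without uninjured 4.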
